A study of Mus musculus with 4 samples.

Results

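The miR-15/16 family was examined in control and c-Myc depleted bronchoalveolar stem cells (BASCs) of the mouse lung. The family was taken by name as the mouse assays for mmu-miR-15a, mmu-miR-15b, mmu-miR-16, mmu-miR-195 and mmu-miR-497, the guide strands of their hairpins. All 5 were present among the 517 mouse miRNAs assayed, and all 5 lie on the first of the 2 TaqMan low density array cards, card A, which holds 335 of the mouse miRNAs. Profiles came from 2 control samples and 2 samples depleted of c-Myc. Both groups derive from ICR mice aged 4 to 6 weeks. Lung cells negative for CD31 and CD45 and positive for CD34 and Sca-1 were sorted and plated on irradiated mouse embryonic fibroblasts. For established cells, the results of the paper describe culture on collagen and its methods describe passage onto mouse embryonic fibroblasts. The passage and surface of the cells profiled are not named. According to the labels, the depleted BASCs were stable lines selected with puromycin after delivery of a c-Myc shRNA by lentivirus. A negative control vector and several c-Myc shRNAs were used in the study, which also calls the comparison cells wild type, and the labels do not say which vector each of these samples carried, nor whether replicates were separate infections or cultures. The p-values therefore measure only the spread between these samples. c-Myc mRNA is not assayed on the cards.

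These miRNAs are among the best known brakes on the cell cycle. Their shared seed, the bases that pair with a target mRNA, directs them to the mRNAs of D- and E-type cyclins, Cdk6, Wee1, Chek1 and the survival factor Bcl2. Loss of the miR-15a and miR-16 locus is a frequent lesion of chronic lymphocytic leukaemia, and miR-195 holds back the division of heart muscle cells after birth. Published work in lymphoma cells describes the miR-15a locus and the miR-195 locus as bound and repressed by c-Myc, which makes their levels after c-Myc depletion a question in BASCs.

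The mature sequences show what the members share. They are given 5′ to 3′ from RefSeq, which held all 5 members, with the seed (bases 2 to 8) in capitals. A pair of relatives outside the family, miR-322 and miR-503, follow for comparison.
miR-15a: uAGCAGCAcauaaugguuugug
miR-15b: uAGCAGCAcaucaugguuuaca
miR-16: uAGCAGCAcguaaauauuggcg
miR-195: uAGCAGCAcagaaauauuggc
miR-497: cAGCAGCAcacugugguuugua
miR-322: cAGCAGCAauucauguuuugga
miR-503: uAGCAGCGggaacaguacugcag

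The 5 members had identical seeds, as had miR-322, and miR-503 shared bases 2 to 7 alone. Counted base by base from the 5′ end, miR-16 and miR-195 were the closest pair, with 19 of 21 bases identical. miR-15a and miR-15b shared 18 of 22 bases, and miR-16 and miR-497 only 11 of 22. In the mouse assembly GRCm38.p6 the mature miR-15a lies at chr14:61632075-61632096 on the minus strand and a copy of miR-16 at chr14:61631936-61631957, both within the span of Dleu2, a long non-coding RNA gene. miR-15b lies at chr3:69009775-69009796 on the plus strand and the second copy of miR-16 at chr3:69009918-69009939, both within the span of Smc4, which encodes a condensin subunit. miR-497 and miR-195 lie at chr11:70234730-70234751 and chr11:70235062-70235082 on the plus strand. The miR-16 assay reads the product of both miR-16 genes together. Whether an assay also detects another member of similar sequence was not tested.

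The assay reports the threshold cycle (CT), which is the number of PCR cycles needed for the signal to pass a set level. The less RNA a sample holds, the higher its CT, with 1 cycle equal to 1 unit of log2 if the product doubles. Between 222 and 229 mouse miRNAs per sample had a CT below 35. Each member had 1 well per sample. Replicates 1 and 2 of the controls read 23.70 and 23.95 for miR-16, and those of the depleted BASCs 23.96 and 23.91. The 4 samples thus lay within 0.27 cycles, and the groups overlapped. miR-15b, the partner of miR-16 at the Smc4 locus, had a CT of 27.97 and 27.67 in controls and of 27.98 and 27.78 after depletion, again with overlap and a range of 0.30 cycles. miR-15a, the partner at the Dleu2 locus, had a CT of 29.99 and 29.62 in controls, and of 28.98 and 29.86 after depletion. Depleted replicate 1 had the lowest CT, apart from the other samples, while depleted replicate 2 fell between the controls. The CT of miR-195 was 29.97 and 30.16 in controls, and 29.47 and 29.97 after depletion. Its lowest CT was also that of depleted replicate 1, and the groups overlapped. miR-497, transcribed together with miR-195, gave a CT in 1 sample alone, 32.38 in control replicate 2, and none in the other 3 samples.

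**Figure D1:**
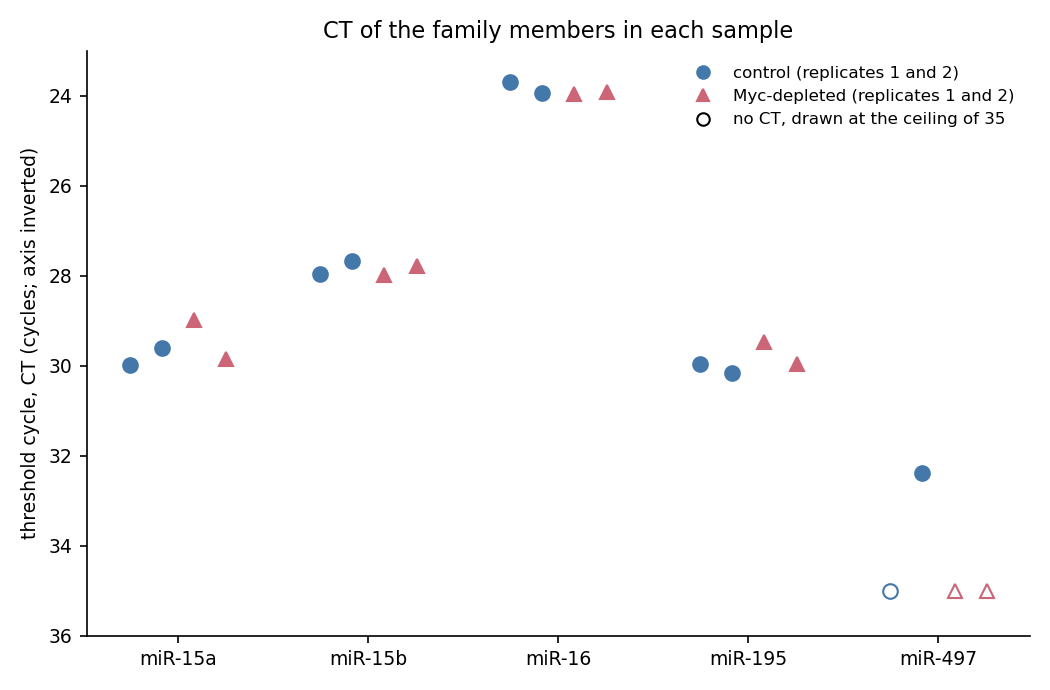
CT of the 5 family members (x axis) in cycles on an inverted y axis, so that higher points mean more RNA; circles are the 2 control samples, triangles the 2 c-Myc depleted samples, and open symbols wells with no CT drawn at 35. miR-16 lies near 24 in every sample, miR-15b near 28, miR-15a and miR-195 near 30, and miR-497 has a CT in 1 control sample only.

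Copies per cell were computed from CT with the conversion in the methods of the study, which assumes 1 slope for all assays and a fixed RNA amount per cell. In a bulk sample, fewer cells holding a miRNA and fewer copies in each cell cannot be told apart. Efficiencies of single assays are not given in the sources used here, so the order of members holds on this scale only. miR-16 was by far the most abundant member, with 3181 ± 392 copies in control BASCs and 2929 ± 71.2 in depleted BASCs (SD, n = 2 each). It ranked 4 and 6 among all mouse miRNAs in these groups. miR-15b followed with 203 ± 29.0 and 194 ± 18.2 copies. miR-15a had 51.8 ± 9.41 copies in controls and 70.2 ± 29.2 after depletion, and miR-195 had 43.0 ± 3.98 and 55.2 ± 13.4 (SD, n = 2 each). The samples of miR-15a and miR-195 overlapped in both groups, so the order of these neighbours is not resolved. All other steps in the order were larger than the spread between replicates. miR-16 exceeded miR-15b 15.7-fold in controls and 15.1-fold after depletion. Of the summed copies of miR-15a, miR-15b, miR-16 and miR-195, miR-16 made up between 89.5% and 92.7% in the 4 samples. The limit of a CT of 35 corresponds to 1.43 copies.

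For the comparison of groups, the mean CT of U6, a small nuclear RNA with 4 wells on each card, was subtracted from each CT of its card to give ΔCT. A log2 change is the control mean ΔCT less the depleted mean ΔCT, positive where the level was higher in the depleted samples. Testing took in the miRNAs whose lowest ΔCT was below 10, 80 in all and 64 of them on card A. Of the family, only miR-15b and miR-16 passed this limit. The lowest ΔCT of miR-15a, miR-195 and miR-497 was 10.11, 10.61 and 13.27. Their changes come from a second fit over all 263 miRNAs with a CT below 35 in at least 1 sample.

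No member changed beyond the threshold in limma with U6 as reference and no trend of the variance on the level. Neither of the 2 tested members had an adjusted p below 0.05 in limma, where 32.5% of the tested miRNAs did, nor an unadjusted p below 0.05. Neither met the other rule, a fold change above 2 with an unadjusted p below 0.05, which 20% of the tested miRNAs met. miR-16 had a ΔCT of 4.80 and 4.84 in controls and of 5.10 and 5.07 after depletion, so that both depleted samples lay below both controls in level. The difference was -0.27 on the log2 scale, with a standard error of 0.11 and an adjusted p of 0.192 in limma. The 95% confidence interval ran from -0.60 to 0.07, or from 0.660 to 1.05 of the control level. Groups that do not overlap in ΔCT were common, at 67.5% of the tested miRNAs. With a trend of the variance on the level, miR-16 had an adjusted p of 0.0428 in limma and 33.8% of the tested miRNAs were called. In an analysis of variance of each miRNA alone, its adjusted p was 0.0502, with an unadjusted p below 0.05. The ΔCT of miR-15b was 9.07 and 8.56 in controls and 9.11 and 8.94 after depletion, so that the groups overlapped. This gave -0.21 on the log2 scale, with a standard error of 0.23, an interval from -0.88 to 0.45 and an adjusted p of 0.542 in limma. Without control replicate 2 the value was 0.04.

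Among the members outside the ΔCT limit none was called either, where 0.76% of the 263 detected miRNAs had an adjusted p below 0.05. The log2 change of miR-15a was 0.24 with an interval from -1.07 to 1.54, and that of miR-195 was 0.19 with an interval from -0.60 to 0.98 (adjusted p = 0.769 and 0.728 from limma). The sign of both changed when depleted replicate 1 was left out, to -0.21 and -0.07, and that of miR-15a also without control replicate 1, to -0.06. The interval of miR-15a reaches past 2-fold in both directions, so that a change of that size was not detectable at this precision, whereas those of miR-16, miR-15b and miR-195 stayed within 2-fold. miR-497 had a fitted change of -1.46 (adjusted p = 0.499 from limma), which depends on the value of 35 given to its 3 empty wells. The median log2 change of the 5 members was -0.21, beside a median of 0.05 over all tested miRNAs and of 0.23 over those on card A. That family median depends on miR-497. With no CT ceiling, where miR-497 has no value, the median of the other 4 members was -0.0095.

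**Figure D2:**
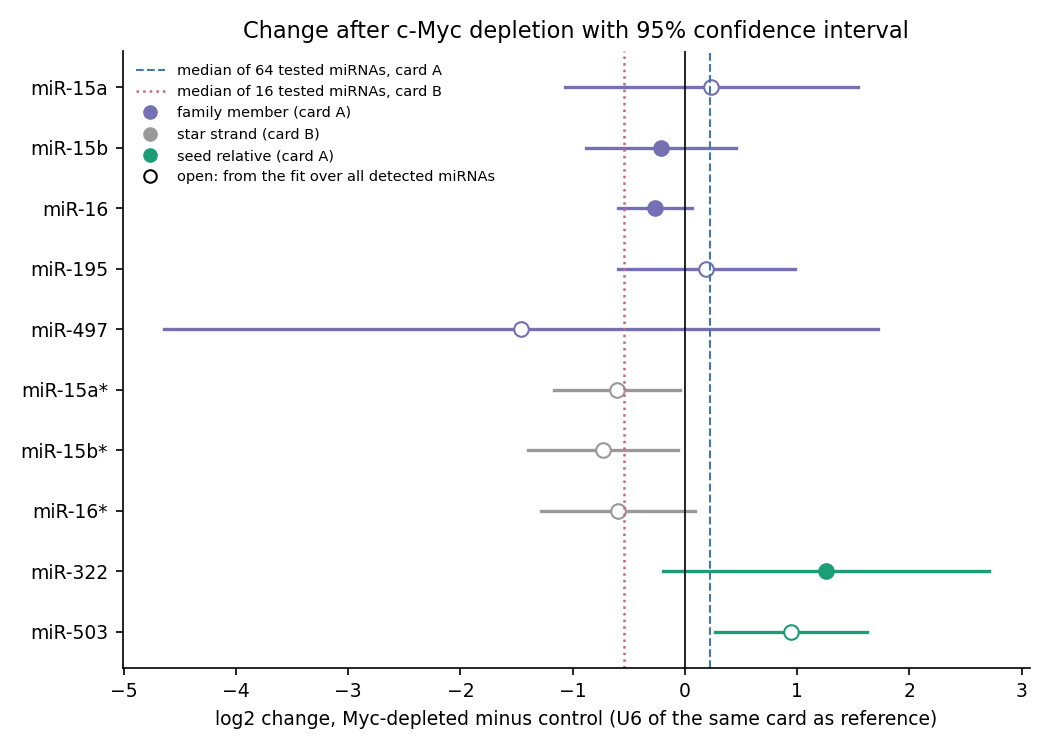
Log2 change after c-Myc depletion (x axis, U6 of the same card as reference) with its 95% confidence interval from limma for the 5 members, 3 star strands and 2 seed relatives; filled points come from the fit over 80 miRNAs and open points from that over 263. Every interval of a family member crosses 0. That of miR-322 lies mostly to the right of 0 (-0.19 to 2.71) and that of miR-503 wholly (0.27 to 1.62), neither with an adjusted p below 0.05 in limma.

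Each of the 6 other references or scalings tried moved every member towards lower levels after depletion, apart from miR-16 as the reference, which is described with the pairs of members. U6 on card A read 18.89 and 19.11 in controls and 18.86 and 18.84 after depletion, a mean difference of 0.15 cycles. Other reference RNAs did not move together. The mean CT of snoRNA135 was 1.07 cycles lower after depletion on card A and that of snoRNA202 was higher (control minus depleted -0.17), whereas on card B the same differences were -0.02 and 1.001 cycles. With both snoRNAs in place of U6, the changes of miR-16 and miR-15b were -0.57 and -0.51, those of miR-15a and miR-195 turned negative, at -0.06 and -0.11, and no member was called. When the median CT of the miRNAs detected in a sample was subtracted from that sample, the median of all tested miRNAs shifted by -0.52. miR-16 and miR-15b then had log2 changes of -0.85 and -0.80 and were both called lower (adjusted p = 0.0471 each from limma), beside 23.8% of the tested miRNAs called lower. miR-15a and miR-195 were at -0.35 and -0.39 and were not called. With each card centred separately, miR-15b was called (log2 change -0.93, adjusted p = 0.0495 from limma) and miR-16 was not (log2 change -0.98, adjusted p = 0.0622 from limma), beside 26.2% called lower. When the centre was taken over the 189 miRNAs with a CT below 35 in all samples, neither was called (log2 changes -0.65 and -0.60, adjusted p = 0.111 and 0.108 from limma).

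**Figure D3:**
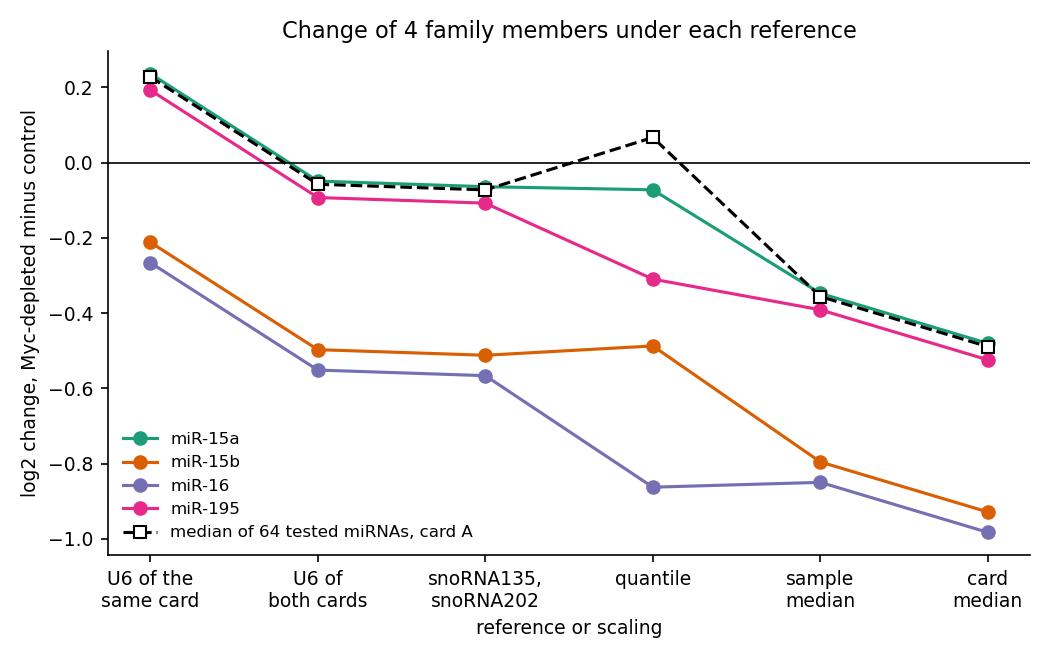
Log2 change after c-Myc depletion (y axis) of miR-15a, miR-15b, miR-16 and miR-195 under 6 references or scalings (x axis), with the median of the 64 tested miRNAs of card A as squares. All but quantile normalization subtract 1 value per sample from every miRNA of card A, so distances from that median cannot differ among them. miR-16 and miR-15b lie below that median, also under quantile normalization. miR-15a and miR-195 lie close to it, miR-195 less so under quantile normalization.

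Relative to the median of the tested miRNAs on card A, where both share the reference, miR-16 was lower by 0.49 and miR-15b by 0.44 on the log2 scale (differences -0.49 and -0.44). miR-15a and miR-195 lay at 0.01 and -0.04 from that median. Among the 64 tested miRNAs of card A, 7 had a lower change than miR-16 and 13 a lower change than miR-15b.

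The reference cancels when 2 members of the card are subtracted within a sample, so the members could be set against each other without U6. A total of 6 pairs were compared by exact two-sided permutation tests, which with 2 samples against 2 cannot give a p below 0.333. miR-15b lies at Smc4 beside 1 of the 2 miR-16 genes, and the miR-16 assay reads both genes. The mean ratio of miR-15b to miR-16 was nearly the same in both groups, but the 2 controls lay further apart than the group means. The log2 ratio of miR-15b to miR-16 was -4.27 and -3.72 in controls and -4.01 and -3.87 after depletion, a mean difference of 0.05 (exact permutation p = 1). That of miR-15a, the neighbour of miR-16 at Dleu2, to miR-16 was -6.29 and -5.67 in controls, and -5.01 and -5.94 after depletion. Its mean differed by 0.50, with overlapping groups (exact permutation p = 0.667). The ratio of miR-15a to miR-195 differed by 0.04, that of miR-15a to miR-15b by 0.45 and that of miR-15b to miR-195 by -0.40, all with overlapping groups. The pair without overlap was miR-16 and miR-195, with log2 ratios of 6.27 and 6.21 in controls and 5.51 and 6.06 after depletion. The level of miR-16 relative to miR-195 differed by -0.46 between the groups (exact permutation p = 0.333, the smallest possible, and 1 after adjustment over the 6 pairs). In limma with miR-16 as the reference, miR-15a, miR-15b and miR-195 changed by 0.50, 0.05 and 0.46, with intervals from -0.87 to 1.87, from -0.64 to 0.75 and from -0.39 to 1.31. No difference among the members was therefore resolved. With miR-16 as the reference, the median change of the 63 tested miRNAs of card A was 0.51, and the values of miR-15a and miR-195 lay near it. Of these 63, 24 were called, 23 of them higher.

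The star strands, the other arms of the same hairpins, were assayed on card B for miR-15a, miR-15b and miR-16, with 2 wells each. The CT of miR-15b*, the mean of its wells, was 29.79 and 29.86 in controls and 29.88 and 29.78 after depletion. It had 50.6 ± 1.84 copies in controls and 50.5 ± 2.60 after depletion, and miR-15a* had 12.0 ± 1.85 and 13.0 ± 1.98 copies (SD, n = 2 each). miR-16* was at the limit, with wells between CT 34.49 and 35.98. The groups overlapped in CT for all of them, and their mean CT differed by 0.12, 0.00 and 0.13 cycles for miR-15a*, miR-15b* and miR-16*. Subtracting U6 of card B, which read 0.72 cycles lower in depleted samples, turned these into log2 changes of -0.60, -0.73 and -0.60 (adjusted p = 0.172, 0.172 and 0.238 from limma over 263 miRNAs), beside a median of -0.54 for the tested miRNAs of card B. These shifts are close to that of the card itself.

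The seed relatives on card A had positive changes. miR-322, the mouse counterpart of human miR-424, had a CT of 29.95 and 28.87 in controls and of 27.94 and 28.06 after depletion, and miR-503, encoded beside it on the X chromosome, 30.97 and 30.94 in controls and 29.73 and 29.99 after depletion. Both depleted samples were higher in level than both controls for each of them. Separation of the groups in ΔCT was common, at 67.5% of the 80 tested miRNAs, which include miR-322 but not miR-503. Their log2 changes were 1.26 (adjusted p = 0.171 from limma) and 0.94 (adjusted p = 0.125 from limma over 263 miRNAs), neither past the threshold. With miR-16 as the reference the differences were 1.52 for miR-322 (interval 0.12 to 2.92, adjusted p = 0.0890 from limma) and 1.21 for miR-503 (interval 0.46 to 1.96, adjusted p = 0.0704 from limma), so that a difference from miR-16 was not established after adjustment. The median of the 63 tested miRNAs of card A with this reference was 0.51.

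The spread of the raw CT over all 4 samples was small for miR-16 and miR-15b. Over the 189 mouse miRNAs with a CT below 35 in every sample, the SD of the CT had a median of 0.495 cycles. Over the 71 of them on card A with a mean CT below 30, the median was 0.415 cycles. The SD of miR-16 was 0.125 cycles, 22nd from the lowest of 189, and that of miR-15b 0.148 cycles. miR-195 and miR-15a had SDs of 0.296 and 0.450 cycles. Among the reference RNAs of card A, the SD was 0.123 cycles for U6, 0.165 for snoRNA202, 0.292 for Y1, 0.622 for snoRNA135 and 0.694 for U87. miR-16 thus varied about as little as U6 of card A, and miR-322 much more, with an SD of 0.926 cycles. The likeness is to that card alone, as on card B the SD was 0.440 cycles for U6 and 0.0996 for snoRNA135.

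**Figure D4:**
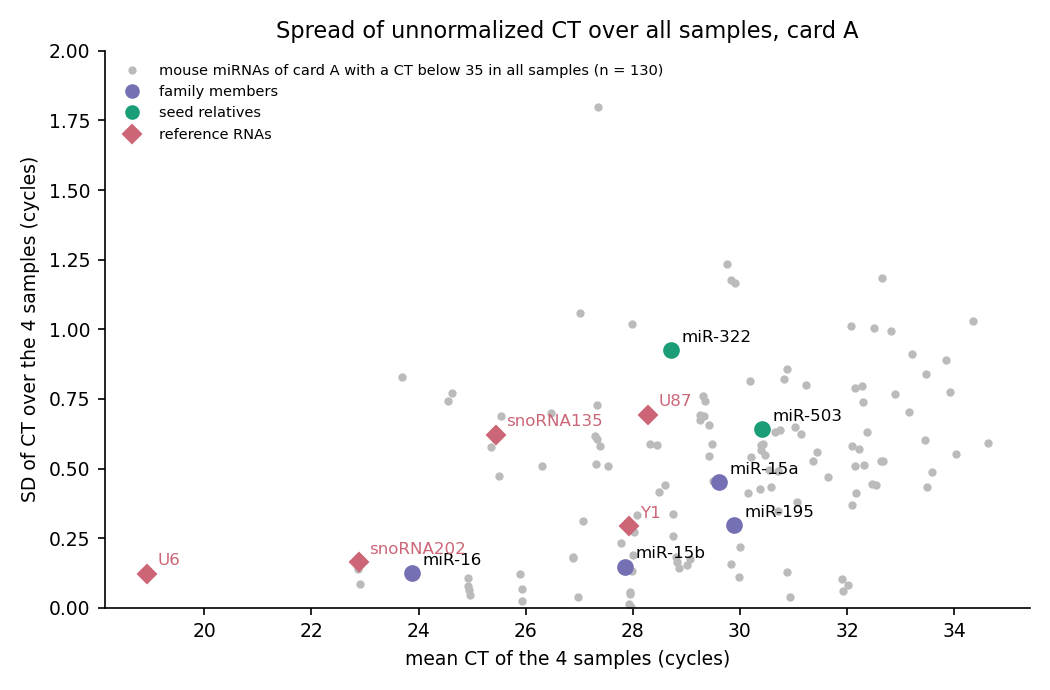
SD of the unnormalized CT over the 4 samples (y axis, cycles) against the mean CT (x axis, cycles) for the mouse miRNAs of card A with a CT below 35 in all samples (grey), the family members, the seed relatives and the reference RNAs. The reference RNAs are drawn at their card A values. miR-16 (0.125) and U6 (0.123) lie near the bottom, and snoRNA135 (0.622), U87 (0.694) and miR-322 (0.926) well above them.

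The deposited CT values were unevenly placed between whole cycles. Of the 1170 CT values of mouse wells, 45.7% fell within the last 0.1 before a whole cycle, where an even placement would give 10%. On card A, which holds the family, the share was 53.1%. Among the 17 CT values of the family there were 9 of this kind, 3 of them for miR-16 (23.95, 23.96 and 23.91). The CT of miR-15a in control replicate 1 and depleted replicate 1, 29.99 and 28.98, were both of this kind and about a cycle apart. The part of this pattern in the SDs and changes above was not tested. For 13 other miRNAs the table holds CT values with 8 decimals, and no family member is among them.

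**Figure D5:**
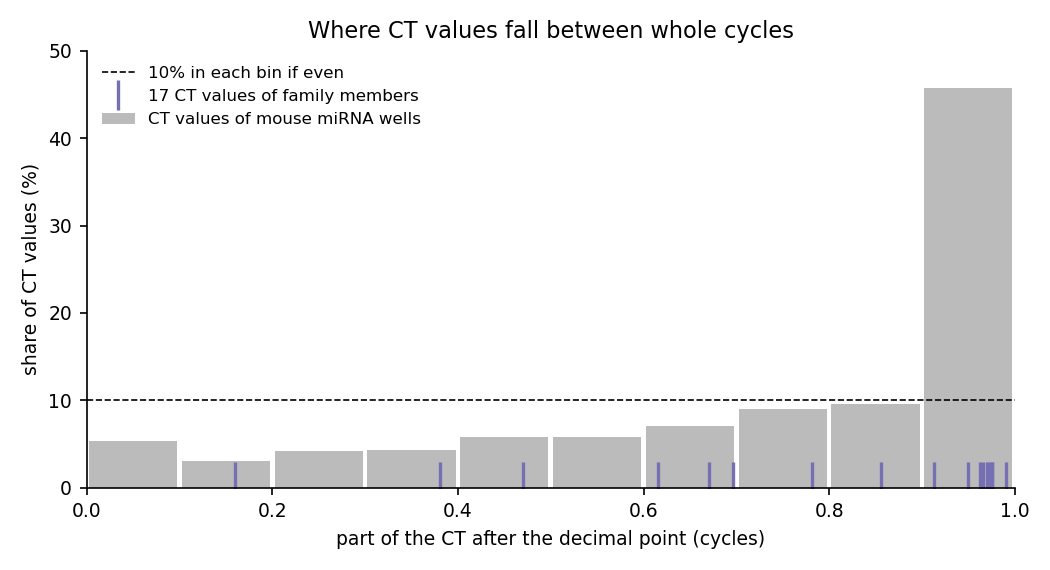
Share of the 1170 CT values of mouse wells (y axis, %) by the part of the CT after the decimal point (x axis, bins of 0.1 cycle), with the 17 CT values of the family as ticks. The last bin holds 45.7% of the values (53.1% of those on card A) and 9 of the 17 ticks.

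The 3 mouse miRNAs closest to the family in pattern were miR-143, miR-10a and let-7g, all on card A. Closeness was the root mean square difference between the ΔCT profile of a miRNA over the 4 samples, centred on its own mean, and the mean profile of the 4 members with a CT in all samples. It was 0.03, 0.07 and 0.07 cycles over 185 miRNAs compared. They were chosen by this measure, so their likeness is a description. The mean profile is an average of unlike members. As centred level (minus ΔCT), it was -0.13 and 0.14 in controls and 0.15 and -0.16 after depletion. That of miR-16 was 0.15 and 0.11 in controls and -0.15 and -0.12 after depletion.

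Beside the family, 20 other miRNAs that published work describes as repressed by c-Myc were on the cards, among them let-7, miR-29 and miR-26 members. A CT was found for 19 of them in all samples, and 10 were tested. miR-150 is on this list and on the blood cell list. Of the 10 tested, 3 were higher after depletion (let-7i, miR-26a and miR-34a) and none was lower by limma at an adjusted p below 0.05, beside 25% of all tested miRNAs called higher. The share of the list is thus near that of all tested miRNAs. Their median log2 change was 0.21, near the 0.23 of all tested miRNAs on card A. With each sample centred on its median, none of the 10 was called higher and miR-29a and miR-30e were called lower, and with each card centred, 4 were called lower and none higher. let-7i and miR-26a changed by 0.85 and 1.10 (adjusted p = 0.0428 and 0.0190 from limma). Among the 10 tested, the largest rise was that of miR-34a, a p53 target that slows proliferation, at 1.17 (standard error 0.13, adjusted p = 0.0107 from limma), and the lowest value that of miR-30e, at -0.31 (standard error 0.25, adjusted p = 0.433 from limma). Both CT values of miR-34a and 1 of miR-26a in depleted samples are among those with 8 decimals. miR-16, on the same scale, had -0.27.

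The cell types that could carry these miRNAs were checked by markers. BASCs are epithelial progenitors of the distal lung. Of 10 epithelial miRNAs of the miR-200, miR-183, miR-203 and miR-205 families, 3 had a CT below 35 in all samples, and miR-203 and miR-205 had none in any sample. Their summed level was 172 and 107 copies per cell in controls and 143 and 101 after depletion. The median log2 change of the 8 detected was -0.47. The lowest was -2.75 for miR-200a (adjusted p = 0.0956 from limma) and the highest 1.56 for miR-96 (adjusted p = 0.628 from limma), each with a CT below 35 in 2 samples. Of 6 fibroblast and mesenchymal miRNAs on the cards, 5 had a CT in all samples, with summed levels of 3350 and 3330 copies in controls and of 5007 and 4874 after depletion. Of the 5 tested, miR-214 was called higher (log2 change 1.02, adjusted p = 0.0115 from limma). The values were 0.82 for miR-199a-3p, 0.04 for miR-143, -0.13 for miR-145 and -0.90 for miR-199a-5p, which had a CT in 2 samples, and none of these passed the threshold. The part of fibroblasts in the family's levels was not tested. Of 6 blood miRNAs on the cards only miR-150 had a CT below 35 in all samples, and miR-451, typical of red cells, where miR-16 is also abundant, had a CT below 35 in control replicate 1 alone. The summed level of the blood list was 30.6 and 4.51 copies in controls and 89.6 and 93.5 after depletion. miR-486, abundant in red cells, had a CT in both depleted samples, the lower at 29.02, and none in controls. Without it the sums were 30.6 and 4.51 copies in controls and 1.57 and 12.9 after depletion, and 4 of the other 5 blood miRNAs had a negative log2 change. Of these 4, miR-142-3p, miR-142-5p and miR-451 had a CT below 35 in control replicate 1 alone. The change of miR-150 was -0.13 with a standard error of 0.74. Both endothelial assays, the 2 arms of miR-126, had a CT in all samples, with summed levels of 106 and 104 copies in controls and of 28.7 and 26.0 after depletion. Of 4 muscle miRNAs, miR-206 alone had a CT in all samples, and miR-1 and miR-133b had none. miR-16 alone had between 2878 and 3459 copies in every sample.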

How the data were processed

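The authors deposited one table of raw threshold cycles (CT) in PCR cycles, from TaqMan Rodent MicroRNA cards A and B read on an ABI PRISM system. No normalization had been applied. The submitters' processing notes name Partek 6.4. Between 334 and 351 wells per sample held a CT. Groups and replicates came from the sample titles.

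A ceiling of 35 replaced any missing or higher CT, repeat wells of an assay were averaged, and U6 of the same card was subtracted. Group differences in ΔCT were tested two-sided in R 4.3.3 by lmFit and eBayes of limma 3.58.1, with Benjamini-Hochberg adjustment over all miRNAs of the fit. With 2 samples per group each miRNA has 2 residual degrees of freedom before pooling, and this number limits the precision. Tables were made with pandas 2.3.3 under Python 3.11.15, exact permutation tests with scipy 1.17.1, and the fit was tested on simulated data. Sequences and neighbouring genes came from RefSeq (GRCm38.p6).

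The family, the miRNA lists and the tests were chosen with earlier results of these data known. Named were the 5 members, their star strands, the seed relatives on the cards (the same bases 2 to 8 as miR-16, and miR-503) and the 3 miRNAs nearest in pattern. Also named were the highest and lowest tested members of a list of miRNAs repressed by c-Myc. let-7i, miR-26a, miR-29a and single marker miRNAs were named after their values were seen. Alternatives covered the reference, the CT ceiling, the ΔCT limit, the test, a replicate block and leaving out each sample. miR-16 as reference, centring over miRNAs with a CT below 35 in all samples and a crossed block were chosen after the data were seen.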

Additional observations from a re-analysis of the deposited data

How the results depend on the processing

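No family member was called in limma with U6 as reference and no variance trend. The same held with no CT ceiling, a ceiling of 32, a ΔCT below 10 in all samples, no ΔCT limit and one-way ANOVA. It also held with U6 pooled over both cards, both snoRNAs, quantile normalization, centring over the miRNAs detected in all samples and miR-16 as reference. Nor was any member called with the replicate block or the crossed block. Called were 2 members with median centring of each sample (miR-15b -0.80, miR-16 -0.85), 1 with median centring within each card (miR-15b -0.93) and 1 with a variance trend (miR-16 -0.27). The median change of the family moved from -0.21 to -0.80 with sample centring, -0.60 with centring over the miRNAs detected in all samples, -0.93 with card centring, -0.51 with the snoRNAs, -0.50 with pooled U6, -0.49 with quantile normalization and 0.26 with miR-16 as reference. The sign of miR-15a and miR-195 turned in these settings (in the same order -0.35 and -0.39, -0.15 and -0.20, -0.48 and -0.52, -0.064 and -0.11, -0.049 and -0.093, -0.072 and -0.31), but not with miR-16 as reference, where that of miR-15b turned (0.054). With 1 sample left out, miR-15a ranged from -0.21 to 0.69, miR-195 from -0.069 to 0.45, miR-15b from -0.46 to 0.041 and miR-16 from -0.29 to -0.24, and miR-497 from -2.88 to -0.046. miR-497 had no value with no ceiling or a ceiling of 32, and the median of the other 4 members was -0.0095 in each of these settings. miR-16 had no value with itself as reference. Copies of miR-16 after depletion were 2780 with U6 made equal over the samples.

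The number of miRNAs called over the whole table was 26 (20 higher and 6 lower). It was 24 with sample centring (5 higher and 19 lower), 24 with card centring (3 and 21), 18 with the snoRNAs (12 and 6), 3 with centring over the miRNAs detected in all samples, 14 with pooled U6, 4 with quantile normalization (all lower), 17 with ΔCT below 10 in all samples, 3 with ANOVA, 2 with no ΔCT limit and 0 with the replicate block in limma, where 26 had an unadjusted p below 0.05. With miR-16 as reference, 24 of the 63 tested miRNAs of card A were called (23 higher and 1 lower). Whether samples with the same replicate number share more than that number is not stated in the labels. Their deviations correlated at -0.44 over the tested miRNAs. With the numbers crossed, a setting chosen after the data were seen, 33 were called. Leaving out 1 sample gave between 0 (without depleted replicate 2) and 25 calls, and 1 without depleted replicate 1. In each of these fits the lone sample was assumed to vary like the other group. The cause of these differences was not tested.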
